A study of Homo sapiens with 11 samples.

Results

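The members described here are the genes of the mitochondrial respiratory chain and ATP synthase, taken by symbol. They are all genes whose symbol begins with NDUFA, NDUFB, NDUFC, NDUFS, NDUFV, UQCR, COX4I, COX5, COX6, COX7, COX8, ATP5F1, ATP5M or ATP5P, with SDHA, SDHB, SDHC, SDHD, CYC1 and the 13 protein genes of the mitochondrial genome. Of the 36601 genes in the count tables, 112 met the rule. They were 88 nuclear genes for subunits, 13 mitochondrial genes for subunits, the 8 complex I assembly factors NDUFAF1 to NDUFAF8, and 3 noncoding genes that share a prefix. The nuclear subunits divide into 37 of complex I, 4 of complex II, 10 of complex III, 19 of complex IV and 18 of complex V. The mitochondrial genome adds 7 to complex I, 1 to complex III, 3 to complex IV and 2 to complex V. NDUFA4 and its paralog NDUFA4L2 carry a complex I prefix and are counted with complex IV, where the NDUFA4 protein resides.

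Single-cell RNA was measured by 10x 3′ sequencing in heart-like cultures grown from the human embryonic stem cell line H9 and harvested at day 42.5. The groups were chambered cardioids, 3-dimensional cardiac organoids, treated with PD173074, an inhibitor of fibroblast growth factor receptors (3 libraries), cardioids without PD173074 (5 libraries), and cells kept in 2D culture (3 libraries). All 3 groups derive from the same line, so nothing here speaks to other donors. The timing and dose of the inhibitor, the number of cardioids pooled and whether cultures were separate are not given in the labels.

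The libraries of a group were repeat runs of the same droplets and not separate cultures. In the 16 pairs of libraries within a group, 99.3% to 99.9% of cell barcodes were shared, and the UMI counts of shared barcodes correlated at 0.998 or above. In the 39 pairs between groups 0.195% to 0.737% of barcodes were shared. Each group was therefore treated as 1 sample, with its value given as the mean over its runs and the range over runs as the technical spread. A group is thus a single sample, so its differences were not checked against replicates and no test was possible. The 95% intervals below are exact Poisson or binomial intervals and cover counting error only. Totals were 36127841 to 37765195 UMIs per run with PD173074, 12266166 to 24495291 without PD173074, and 43908067 to 46304366 in 2D culture. After filtering, 4597 cells with PD173074, 3534 without PD173074 and 8183 in 2D culture remained. Cells were grouped by their other genes, with the respiratory chain genes left out of the clustering.

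The main set is the cardiomyocyte-like cells, which were 2859 cells with PD173074 (62.2% of cells), 3057 without PD173074 (86.5%) and 7235 in 2D culture (88.4%). The 15 cardiomyocyte markers, among them the sarcomere genes TNNT2, MYH6 and TTN, summed to 28716, 21772 and 18574 CPM (UMIs scaled to a total of 1000000) in them, in that order. The 9 markers of endoderm summed to 13.3, 38.5 and 52.0 CPM, and those of blood to under 1 CPM. The 3 samples placed their cardiomyocyte-like cells in different clusters. Cells with PD173074 were mostly in cluster 2 (1337 cells, led by NPPA and NR2F1), cluster 6 (691, FGF12) and cluster 5 (569, TFPI2). The largest cluster without PD173074 was cluster 3 (1350 of 3057 cells, RSPO3 and TBX3), and 2D cells were mostly in cluster 0 (3203, GRIA4) and cluster 1 (2654, CKM and ENO3). Values over all cardiomyocyte-like cells and values within a cluster are for that reason given side by side.

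The chain passes electrons from NADH through complex I, or from succinate through complex II, to complex III, by way of cytochrome c to complex IV and on to oxygen. Complexes I, III and IV pump protons across the inner mitochondrial membrane, and complex V, the ATP synthase, uses the return flow to make ATP. Complexes I, III, IV and V are assembled from proteins of both genomes, while complex II is entirely nuclear. In the heart this chain supplies most of the ATP for contraction, and its capacity grows as cardiomyocytes mature.

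A gene was read in a comparison when it reached 20 CPM in the higher of the 2 samples, and was called different when the whole 95% interval of its CPM ratio lay beyond 1.5-fold. In cardiomyocyte-like cells 100 of the 112 members reached that level in at least 1 sample of each comparison: 80 nuclear subunits, all 13 mitochondrial subunits and 7 assembly factors. The nuclear subunits below it were UQCRHL, COX7B2, COX8C, COX6A2, COX7A1, COX6B2, COX4I2 and ATP5MGL. A 3′ UMI count is not scaled by gene length and mitochondrial UMIs are part of the total that CPM are scaled by, so levels are compared between samples and not between genes. A sum over cells cannot tell fewer cells with a transcript from less of it per cell.

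Over all cardiomyocyte-like cells the summed nuclear subunits were close in both kinds of cardioid and larger in 2D culture. In cardiomyocyte-like cells they took 2.15% of UMIs with PD173074 (runs 2.14% to 2.15%), 2.13% without PD173074 (2.10% to 2.26%) and 2.62% in 2D culture (2.62% to 2.63%). The mitochondrial subunits took 4.22% with PD173074 (4.19% to 4.26%), 3.72% without PD173074 (3.62% to 4.11%) and 5.21% in 2D culture (5.17% to 5.26%). The runs of the 3 samples did not overlap for the mitochondrial share, while the runs of both kinds of cardioid overlapped for the nuclear share. The median cardiomyocyte-like cell held 4.10% mitochondrial subunit UMIs with PD173074 (quartiles 3.08% and 5.51%), 3.51% without PD173074 (2.59% and 4.68%) and 5.15% in 2D culture (4.17% and 6.30%), so single cells of the 3 samples overlapped widely. The mitochondrial share also moved with depth. In cells of 5000 to 10000 UMIs its median was 3.89% with PD173074, 3.52% without PD173074 and 5.09% in 2D culture, and in cells of 2500 to 5000 UMIs it was 4.47%, 3.41% and 5.11% in that order. In cells of 10000 UMIs or more it was 3.70%, 3.28% and 4.66%. In the shallowest cells, of 1000 to 2500 UMIs, the order changed, with 6.77% with PD173074, 4.53% without PD173074 and 6.499% in 2D culture. The nuclear share moved with depth too, and the order of the samples changed. Its median in cells of 5000 to 10000 UMIs was 2.46% with PD173074, 2.07% without PD173074 and 2.41% in 2D culture. In that order it was 2.13%, 2.25% and 3.01% at 2500 to 5000 UMIs, and 1.90%, 1.82% and 2.24% at 10000 or more. In the shallowest cells it was 1.10%, 1.38% and 2.08%.

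**Figure D1:**
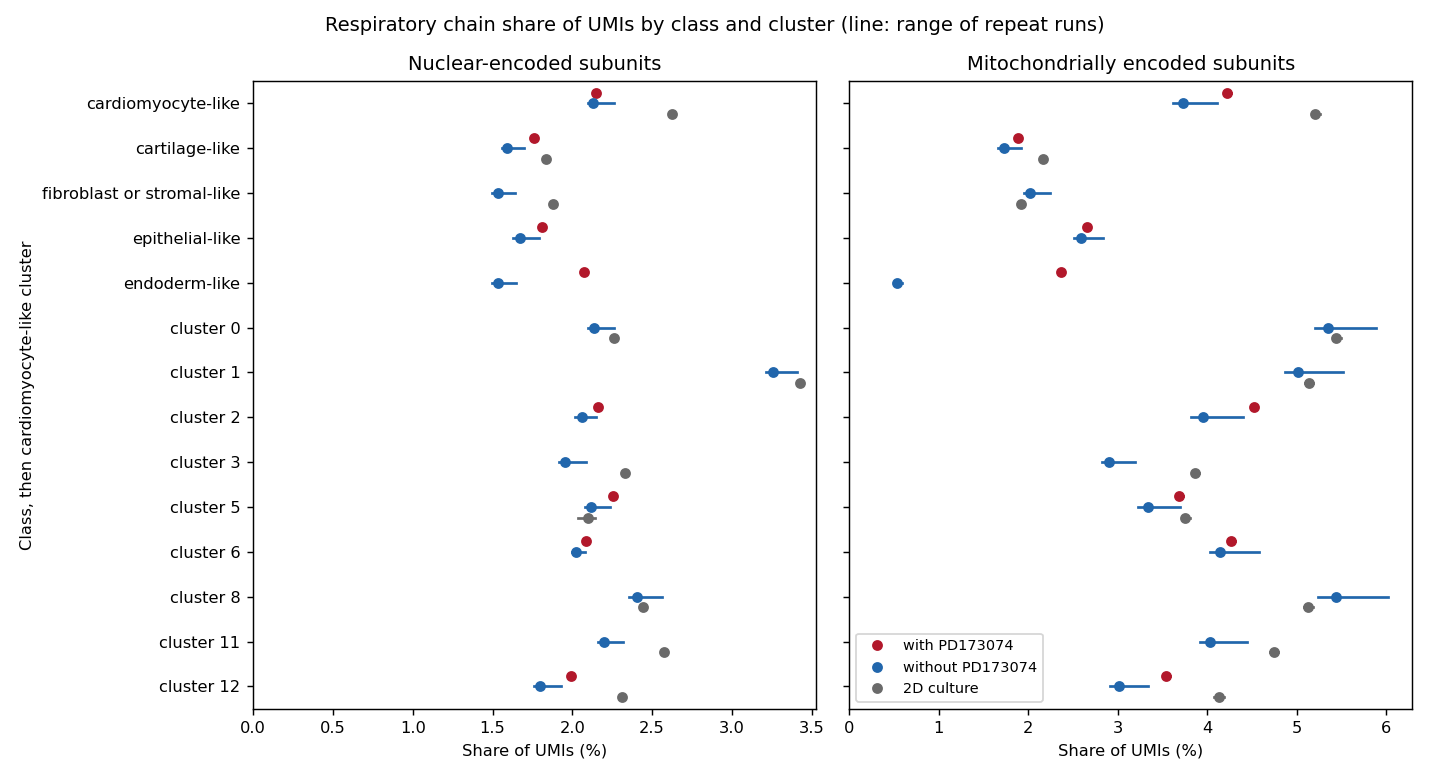
Share of UMIs (percent, horizontal axis) in nuclear and in mitochondrial respiratory chain subunits, by cell class and cardiomyocyte-like cluster (vertical axis), for each sample. Points are the mean over repeat runs and lines are the range over runs. In cardiomyocyte-like cells the mitochondrial share was 4.22% with PD173074, 3.72% without PD173074 and 5.21% in 2D culture, above the 1.72% to 2.16% of cartilage-like cells.

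By complex, cardioids without PD173074 were below 2D culture for every complex but the second. Nuclear complex I subunits, which carry the NADH and iron-sulfur centres and a ring of accessory proteins, summed to 0.716% of UMIs with PD173074, 0.695% without PD173074 and 0.799% in 2D culture. Complex III, which holds the cytochrome bc1 subunits, summed to 0.250%, 0.227% and 0.288% in that order. Complex IV, cytochrome c oxidase, summed to 0.522%, 0.510% and 0.671%, and complex V to 0.628%, 0.665% and 0.835%. The log2 ratio of these sums in cardioids without PD173074 over 2D culture was −0.20 for complex I, −0.34 for complex III, −0.40 for complex IV and −0.33 for complex V. For complex II it was 0.02, with an interval of −0.03 to 0.06. For the mitochondrial subunits the same ratio was −0.51 in complex I, −0.40 in complex III, −0.56 in complex IV and −0.21 in complex V. With PD173074 over without PD173074, the nuclear sums differed by no more than 0.16 log2 in any complex, and the mitochondrial ones by 0.16 in complex I, 0.16 in complex III, 0.25 in complex IV and −0.02 in complex V.

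Complex II, succinate dehydrogenase, is also an enzyme of the TCA cycle. Its flavoprotein SDHA was at 89.4 CPM with PD173074, 85.6 CPM without PD173074 and 82.6 CPM in 2D culture. The iron-sulfur subunit SDHB was at 55.0, 62.8 and 59.4 CPM in the same order, and the membrane anchors SDHC and SDHD at 85.1, 102 and 111 CPM and at 67.7, 81.3 and 74.4 CPM. None of the 4 was called different in any comparison. CYC1, the cytochrome c1 of complex III, stood at 128, 116 and 136 CPM and was not called either.

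Single members seldom passed the call rule between the samples. With PD173074 over without PD173074, 5.61% of the 8069 genes read were called higher and 5.12% lower. Of the 100 members read 1 was called higher and 1 lower, 59 had a ratio above 1 and 41 below, and their median log2 ratio was 0.05, against −0.08 over all genes. The higher one was MT-ND3, a mitochondrial subunit of complex I, at 1817 CPM with PD173074 (runs 1793 to 1856) and 1188 CPM without PD173074 (runs 1037 to 1240). Its log2 ratio was 0.61 (0.59 to 0.64), so it was just past the 1.5-fold line. The lower one was NDUFA4L2. MT-ND6 had a log2 ratio of 0.61 as well, with an interval of 0.53 to 0.69 that reached inside the line. The MT-ND3 call was lost without run 1 with PD173074 (0.60) or without run 3 without PD173074 (0.57), since the lower bound of its interval then fell inside the line, and likewise with shared clusters weighted equally (0.62, from 0.57 to 0.66).

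Without PD173074 over 2D culture, 2.29% of 7875 genes were called higher and 0.724% lower. NDUFA4L2 was the 1 member called higher, and 4 of the 100 members read were called lower. Their ratios were below 1 for 87 of the 100 members, with a median log2 ratio of −0.26 against 0.07 over all genes. ATP5MC1, 1 of the 3 genes for the membrane c-ring of ATP synthase, was at 263 CPM without PD173074 (runs 257 to 268) and 452 CPM in 2D culture (runs 449 to 455), a log2 ratio of −0.78 (−0.83 to −0.73). COX7A2, the widely expressed isoform of a small complex IV subunit, was at 237 CPM without PD173074 (runs 230 to 262) and 377 CPM in 2D culture (runs 373 to 380), a log2 ratio of −0.67. MT-CO3, a core subunit of complex IV, was at 5817 CPM without PD173074 (runs 5095 to 6007) and 9182 CPM in 2D culture (runs 9165 to 9210). The log2 ratio was −0.66 for MT-CO3 and −0.66 for MT-ND3. The runs of the 2 samples did not overlap for any of these 4 genes. Without run 3 of the cardioids without PD173074 the count called lower was 7, with COX6B1, MT-CO2 and MT-ND4 added. The share over all genes without that run is not given.

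With PD173074 over 2D culture, a comparison that shares a sample with each of the others, 8.57% of 8108 genes were called higher and 6.86% lower. Of the 100 members 1 was called higher and 6 lower, with 82 ratios below 1 and a median log2 ratio of −0.21. The higher one was MT-ND6, a complex I subunit and the only protein gene on the light strand of the mitochondrial genome, at 169 CPM with PD173074 (runs 166 to 170) and 99.4 CPM in 2D culture (runs 95.9 to 103), a log2 ratio of 0.76. With shared clusters weighted equally, here clusters 5 and 12 only, the MT-ND6 ratio was 0.01 and its call was lost. The lower ones, with their log2 ratios, included MT-ND4 (−0.68), MT-ND4L (−0.79), COX7A2 (−0.79) and ATP5MC1 (−1.05). ATP5MC3, another c-ring gene, was at 1143 CPM with PD173074 and 2039 CPM in 2D culture, with a log2 ratio of −0.83. NDUFA4L2 was the sixth. Over all cells of each sample COX5A, a nuclear subunit of complex IV, was called lower in this comparison as well, at 356 CPM with PD173074 and 547 CPM in 2D culture, where 6.48% of genes were called lower.

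**Figure D2:**
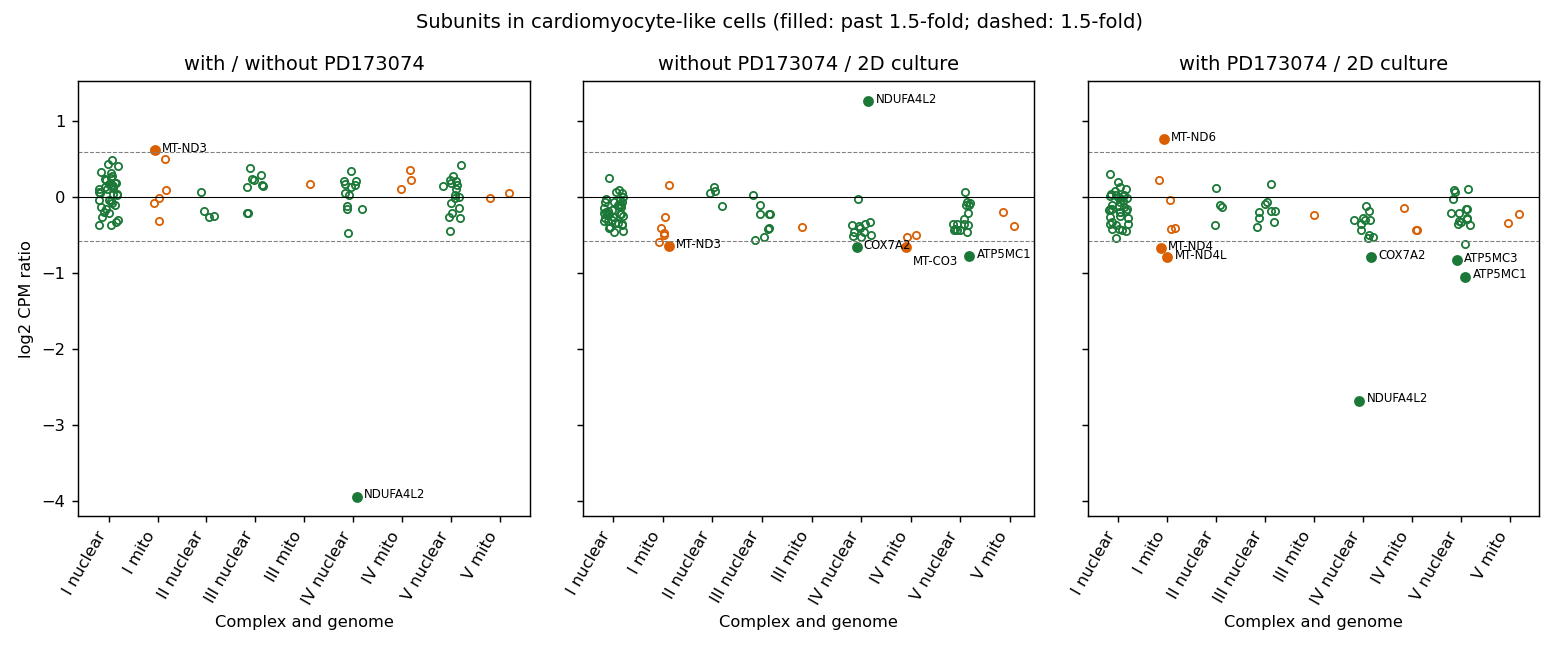
Log2 ratio of CPM (vertical axis) of every subunit read in cardiomyocyte-like cells, by complex and genome (horizontal axis), for the 3 comparisons. Each point is a member and the dashed lines mark 1.5-fold. NDUFA4L2 stood apart at −3.95 with PD173074 over without PD173074, while most other members lay within the lines.

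The sum differences between samples were small within some clusters and remained within others. Within cluster 0 the nuclear subunits took 2.13% of UMIs without PD173074 and 2.26% in 2D culture, and the mitochondrial ones 5.35% and 5.44%. Within cluster 1 they took 3.26% and 3.43%, and 5.01% and 5.14%. In neither cluster was any member called different between these samples, where 0.0127% and 0.0409% of all genes read were called in either direction. In cluster 3, which held 1350 cells without PD173074 and 88 in 2D culture, the mitochondrial share was 2.90% without PD173074 and 3.87% in 2D culture, a log2 ratio of −0.41. In cluster 11 it was 4.04% without PD173074 and 4.75% in 2D culture, with nuclear shares of 2.20% and 2.57%. In cluster 12 it was 3.02% without PD173074 and 4.13% in 2D culture, with nuclear shares of 1.80% and 2.31%. Cluster 5 differed less, at 3.33% and 3.75% mitochondrial and 2.12% and 2.10% nuclear, and in cluster 8 the mitochondrial share was 5.44% without PD173074 and 5.13% in 2D culture. With each shared cluster given equal weight, the log2 ratio of the nuclear sum without PD173074 over 2D culture was −0.14, against −0.30 over all cardiomyocyte-like cells, and that of the mitochondrial sum was −0.15, against −0.48. With that weighting no member was called lower in this comparison. With PD173074 over 2D culture that weighting rested on clusters 5 and 12 alone. They held 569 and 163 cells with PD173074 and 75 and 174 in 2D culture, a minority of the cardiomyocyte-like cells of each sample. NDUFA4L2 was then the 1 member still called in that comparison, in either direction.

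NDUFA4L2 was the member with the greatest difference between the samples. It encodes a paralog of the complex IV subunit NDUFA4 and is known as a target of hypoxia-inducible factor (HIF). In cardiomyocyte-like cells NDUFA4L2 was at 5.96, 6.90 and 6.60 CPM in the 3 runs with PD173074, at 99.6, 100.02, 110, 94.3 and 96.2 CPM in the 5 runs without PD173074, and at 42.1, 39.9 and 43.2 CPM in the 3 runs in 2D culture. The runs of the 3 samples did not overlap. The log2 ratio was −3.95 (−4.22 to −3.69) with PD173074 over without PD173074, 1.26 (1.16 to 1.36) without PD173074 over 2D culture, and −2.69 (−2.96 to −2.42) with PD173074 over 2D culture. NDUFA4 itself was at 822 CPM with PD173074, 796 CPM without PD173074 and 1021 CPM in 2D culture and was not called. NDUFA4L2 thus made up 0.783% of the UMIs of the pair with PD173074, 11.2% without PD173074 and 3.93% in 2D culture.

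The lower NDUFA4L2 level with PD173074 was also seen within clusters. In cluster 2 NDUFA4L2 was at 5.71 CPM with PD173074 and 69.4 CPM without PD173074. In cluster 5 it was at 10.0 CPM with PD173074, 63.1 CPM without PD173074 and 28.8 CPM in 2D culture, and in the mitotic cluster 12 at 1.89, 58.9 and 37.6 CPM in that order. It was called lower with PD173074 than without in all 3 clusters, where 0.282%, 1.01% and 1.78% of all genes were called lower. With clusters 2, 5, 6 and 12 weighted equally the log2 ratio was −3.43. Level also differed between clusters. Without PD173074 it was 154 CPM in cluster 3 and 1.15 CPM in cluster 6, and in 2D culture 69.6 CPM in cluster 1 and 6.04 CPM in cluster 8, the cluster led by MYL2 and MYH7. In cluster 6 it was 0.253 CPM with PD173074, where 1.33 UMIs were counted per run.

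Outside the cardiomyocyte-like cells, NDUFA4L2 was highest in cartilage-like cells, at 212 CPM with PD173074, 363 CPM without PD173074 and 320 CPM in 2D culture. It was called lower with PD173074 than without there too, where 0.951% of genes were called lower. In epithelial-like cells it was at 9.62 CPM with PD173074 and 21.4 CPM without PD173074, a count of 62.3 and 12.9 UMIs per run. Over all cells NDUFA4L2 was at 42.3 CPM with PD173074, 108 CPM without PD173074 and 51.8 CPM in 2D culture. That sum mixes the classes, since cartilage-like cells were 597 of the cells with PD173074 and 154 of those without.

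**Figure D3:**
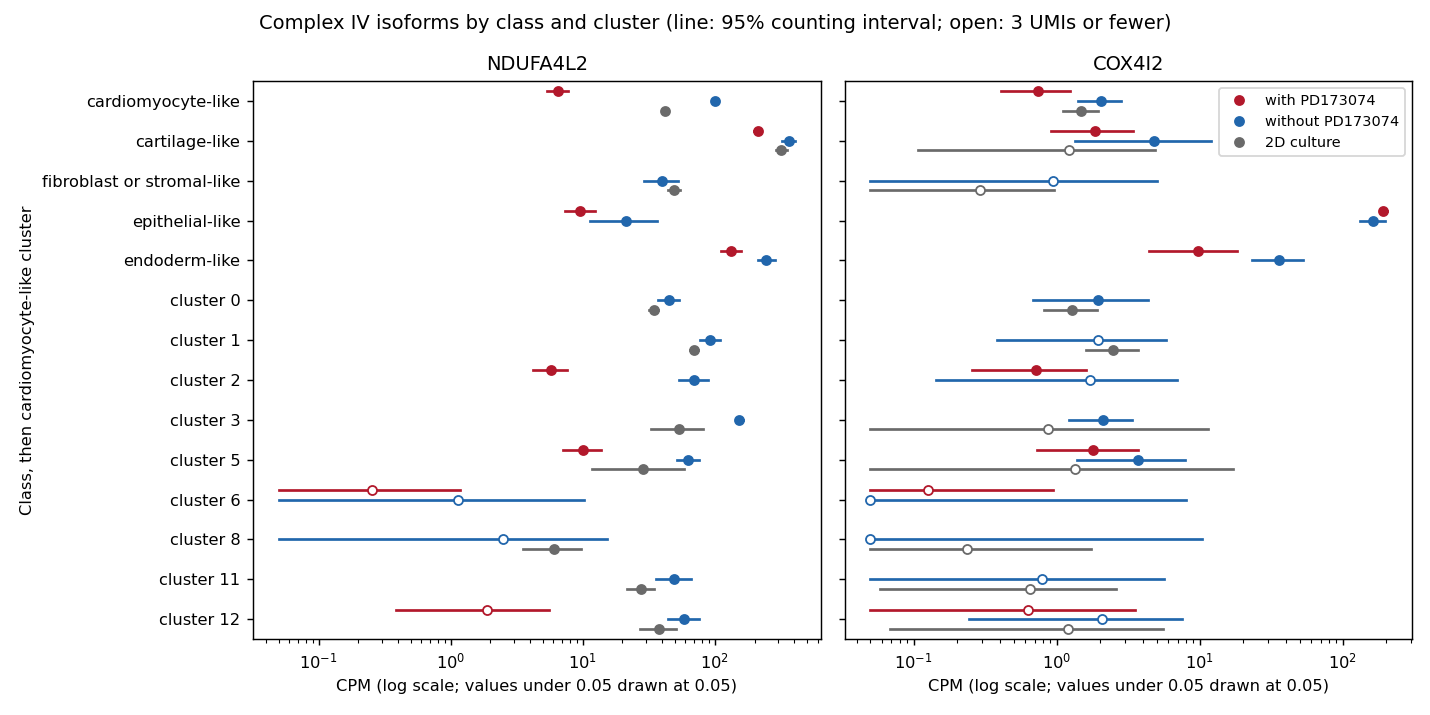
CPM (log scale, horizontal axis) of NDUFA4L2 and COX4I2 by cell class and cardiomyocyte-like cluster (vertical axis), for each sample. Lines are exact 95% Poisson counting intervals, and open marks have 3 UMIs or fewer. NDUFA4L2 was at 6.49 CPM in cardiomyocyte-like cells with PD173074, 100 CPM without PD173074 and 41.7 CPM in 2D culture. COX4I2 was high in epithelial-like cells.

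Most other listed genes known as HIF targets were also lower with PD173074 in cardiomyocyte-like cells. HIF activity itself was not tested. Of 12 listed genes 11 were read, and 8 of the 11 were called lower with PD173074 than without, with a median log2 ratio of −1.001 against −0.08 over all genes, of which 5.12% were called lower. LDHA, which makes lactate, was at 747 CPM with PD173074, 1905 CPM without PD173074 and 1627 CPM in 2D culture. The glycolytic enzyme ENO1 was at 960, 2546 and 2341 CPM, the HIF hydroxylase EGLN3 at 33.5, 119 and 95.6 CPM, and BNIP3, which takes part in removing mitochondria, at 317, 773 and 740 CPM in that order. The others called were PGK1, SLC2A1, VEGFA and ANKRD37, while PDK1, P4HA1 and ADM were not, and CA9 was below 20 CPM. Without PD173074 over 2D culture, 1 of 11 was called, higher, where 2.29% of all genes were. It was ADM, at 32.7 CPM without PD173074 and 10.6 CPM in 2D culture. Several of these genes are glycolytic enzymes with other regulators. Within cluster 2 the count called lower with PD173074 was 5 of 10 (0.282% of all genes), in cluster 5 it was 2 of 11 (1.01%) and in cluster 12 it was 6 of 10 (1.78%). In cartilage-like cells it was 0 of 10 (0.951% of all genes), with a median log2 ratio of −0.51.

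The other paralog pairs showed which isoform these cells used. COX4I2 is the second isoform of complex IV subunit 4, known from lung and for its response to low oxygen. In cardiomyocyte-like cells it was 0.0972% of the COX4I pair with PD173074, 0.289% without PD173074 and 0.159% in 2D culture. In epithelial-like cells it was 22.8% (21.7% to 23.97%) with PD173074 and 20.7% (17.1% to 24.6%) without PD173074, at 191 and 161 CPM. The intervals of both samples overlap. In the cardiomyocyte-like cells of the same samples, which free RNA can reach, COX4I2 was at 0.743 and 2.03 CPM. Over all cells COX4I2 was at 34.8 CPM with PD173074, 7.66 CPM without PD173074 and 1.28 CPM in 2D culture, where 6.04% of genes were called higher with PD173074 than without. The 533 epithelial-like cells with PD173074, 87 without and 0 in 2D culture moved with that sum.

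The striated muscle isoforms of complex IV were low in all 3 samples. COX6A2, the heart and skeletal muscle form, was 1.252% of the COX6A pair with PD173074, 1.74% without PD173074 and 2.03% in 2D culture, at 4.03, 6.27 and 9.50 CPM. COX7A1, the other heart form, was at no more than 0.246 CPM in any of the 3. COX7A2 took 49.2%, 43.2% and 54.1% of the COX7A family in the order above, with COX7A2L, which takes part in joining complexes III and IV, making up most of the rest. The testis-type COX6B2, COX7B2 and COX8C were each below 1 CPM. Of the 3 c-ring genes, which encode 1 mature protein, ATP5MC1 made up 10.8% with PD173074, 10.9% without PD173074 and 14.3% in 2D culture. ATP5MC2 made up 32.6%, 24.1% and 21.3%, and ATP5MC3 56.6%, 65.0% and 64.4%. UQCRH and UQCRHL are near-identical, and the split between them, under 0.5% for UQCRHL, is uncertain.

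The mitochondrial transcripts did not keep the same proportions in the 3 samples. They are cut from long transcripts of each strand, and MT-ATP8 with MT-ATP6 and MT-ND4L with MT-ND4 overlap on a shared message, so their separate counts are uncertain. MT-CO1, the catalytic subunit of complex IV, made up 24.9% of the mitochondrial subunit UMIs with PD173074, 22.0% without PD173074 and 22.3% in 2D culture. MT-ND4 made up 7.77%, 9.34% and 10.1%, and MT-ND1 4.53%, 3.64% and 3.15% in that order. MT-ND3 made up 4.30%, 3.21% and 3.59%, and MT-ND6 0.399%, 0.30% and 0.191%. MT-ATP6, the proton channel subunit of ATP synthase, made up 13.6% with PD173074, 15.6% without PD173074 and 12.9% in 2D culture. MT-CYB, the mitochondrial subunit of complex III, was within 6.55% to 6.93% in all 3. These are shares of a closed sum, so a larger share of 1 transcript lowers the rest.

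**Figure D4:**
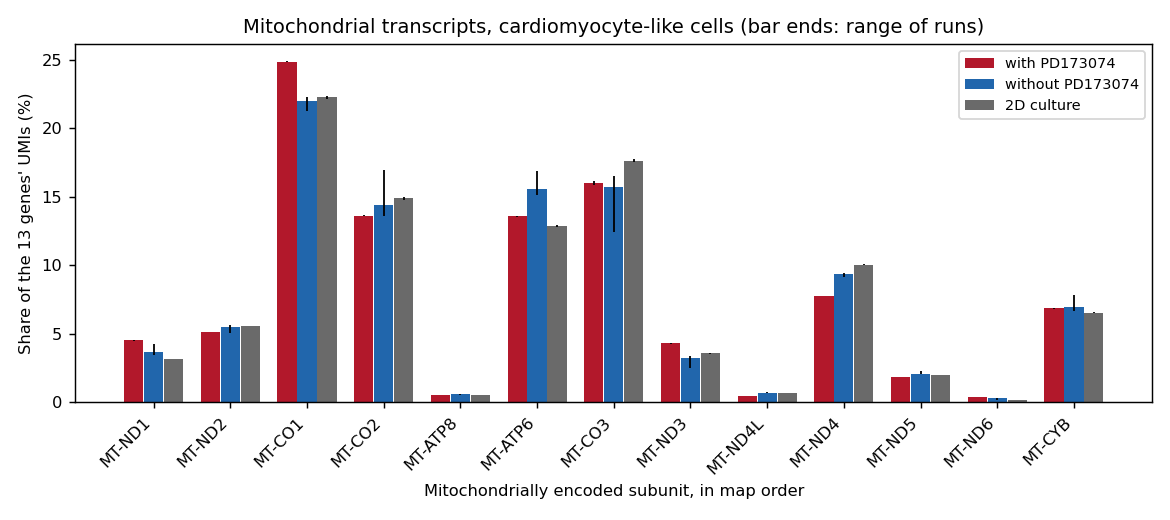
Share of the mitochondrial subunit UMIs (percent, vertical axis) in each of the 13 mitochondrial protein genes in cardiomyocyte-like cells, for the 3 samples. Bars are means over runs, and the lines on them are the range over runs. MT-ND4 took 7.77% with PD173074, 9.34% without PD173074 and 10.1% in 2D culture, while MT-ND1 took 4.53%, 3.64% and 3.15% in that order.

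Among the clusters, cluster 1 stood out for its nuclear subunits. Clusters 0 and 1 held most 2D cells and also 389 and 311 cells without PD173074, so their contrast can be read in both samples. Cluster 1 is led by CKM, the muscle creatine kinase, and ENO3, the muscle enolase. Nuclear subunits took 3.26% of UMIs in cluster 1 and 2.13% in cluster 0 without PD173074, and 3.43% and 2.26% in 2D culture. In both samples 79 of the 80 nuclear subunits read had a ratio above 1, with a median log2 ratio of 0.58, against −0.27 over all genes. The call rule was passed by 16 of 80 without PD173074 and 24 of 80 in 2D culture, where 2.36% and 4.3% of all genes were called higher, and all 16 were among the 24. NDUFS1, the largest complex I subunit of the electron input arm, was the exception, at log2 ratios of −0.48 and −0.37.

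The called members came from complexes I, III, IV and V. CYC1 was at 224 CPM in cluster 1 and 106 CPM in cluster 0 without PD173074, and at 202 and 103 CPM in 2D culture. ATP5PO, the peripheral stalk protein that holds the ATP synthase head, was at 655 and 311 CPM without PD173074 and at 618 and 305 CPM in 2D culture. NDUFA6, an accessory subunit of complex I, was at 181 and 90.5 CPM, and at 177 and 96.7 CPM. NDUFS3 and NDUFS7, core subunits of complex I, were at 175 and 182 CPM in cluster 1 and 87.4 and 93.5 CPM in cluster 0 without PD173074, and had log2 ratios of 0.86 and 0.85 in 2D culture. NDUFA4L2 was called too, with log2 ratios of 1.05 and 1.01. By complex, the log2 ratios of the sums were 0.59 and 0.59 for complex I, 0.40 and 0.34 for complex II, 0.56 and 0.55 for complex III, 0.61 and 0.60 for complex IV and 0.66 and 0.63 for complex V.

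The mitochondrial subunits did not follow in cluster 1. Their share was 5.01% in cluster 1 and 5.35% in cluster 0 without PD173074, and 5.14% and 5.44% in 2D culture, and 4 of 13 were called lower in each sample, where 7.7% and 13% of all genes were. They were MT-ND6, MT-ATP8, MT-ND4L and MT-ND5, with log2 ratios of −1.30, −0.99, −0.92 and −0.78 without PD173074 and −1.30, −0.73, −0.88 and −0.72 in 2D culture. Cluster 1 cells were shallower, with a median of 3508 UMIs against 5086 in cluster 0. Among cells of 3000 to 6000 UMIs, 77 and 79 of the nuclear subunits had a ratio above 1 and 5 and 11 were called higher. With TMM scaling the log2 ratio of the mitochondrial sum was 0.14 without PD173074 and 0.19 in 2D culture, against −0.10 and −0.08 by CPM, while the nuclear subunits called higher became 50 and 66. The clusters were defined from other genes of the same cells, so these values are a description. The shares over all genes in that depth window and with TMM scaling are not given.

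**Figure D5:**
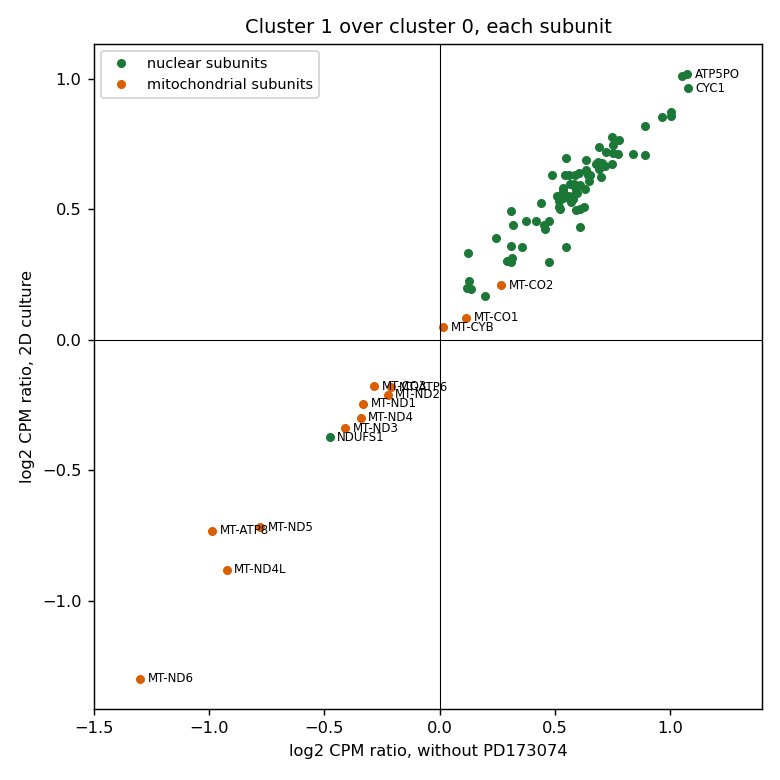
Log2 ratio of CPM in cluster 1 over cluster 0 for each member read, without PD173074 (horizontal axis) and in 2D culture (vertical axis), with nuclear and mitochondrial subunits marked apart. Nuclear subunits lie above 0 on both axes but for NDUFS1, and MT-ND6 lies at −1.30 on both.

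Cluster 3, the RSPO3 and TBX3 cluster and the largest without PD173074, had low mitochondrial transcripts and a smaller difference in nuclear ones. Against cluster 0 in the same sample, 11 of 13 mitochondrial subunits were called lower, where 1.85% of all genes were, with log2 ratios from −1.03 for MT-CYB to −0.70 for MT-ND1 among those called. MT-CO1 was at 5834 CPM in cluster 3 and 11753 CPM in cluster 0. Of the 80 nuclear subunits 1 was called higher, NDUFA4L2 with a log2 ratio of 1.78, where 2.31% of all genes were, and none lower. They took 1.95% of UMIs in cluster 3 and 2.13% in cluster 0. A ratio above 1 was seen in 26 of the 80, with a median log2 ratio of −0.10 against 0.02 over all genes. By complex these were 19 of 37 in complex I, 2 of 4 in II, 2 of 9 in III, 2 of 13 in IV and 1 of 17 in V. The 88 cells of cluster 3 in 2D culture gave 2 of 13 lower, MT-ND5 and MT-ND4, where 0.195% of all genes were, and 0 members higher, where 1.09% of all genes were. The log2 ratio of the mitochondrial sum was −0.88 without PD173074 and −0.49 in 2D culture. That of the nuclear sum was −0.13 and 0.04, and 45 of 80 nuclear subunits had a ratio above 1 in 2D culture.

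The sequences upstream of 5 of these genes are shown because they differed most across the samples (NDUFA4L2), moved together across them (ATP5MC1 and COX7A2) or moved together between clusters 0 and 1 (ATP5PO and NDUFA6). Nuclear respiratory chain genes are known for promoters with sites for ETS factors, nuclear respiratory factor 1 (NRF1) and YY1. Each run holds the 250 bases before a start given in the RefSeq annotation of GRCh38.p14, written along the gene's own strand. Capitals mark matches on either strand to CCGGAAG (ETS), GCGCATGCG (NRF1), AAGATGGC (YY1), TGACGTCA (CRE), CCAAT and ACGTG (HRE, 1 form of the core of HIF sites). CRE and CCAAT were added after the ATP5MC1 sequence had been seen, and HRE after the other motifs had been counted. NDUFA4L2, listed under its newer symbol COXFA4L2, is at chr12:57240745-57240994 (−) before the more downstream of its 2 listed starts, ATP5MC1 at chr17:48892537-48892786 (+), COX7A2 at chr6:75243802-75244051 (−) before the more downstream of its 2 listed starts, ATP5PO at chr21:33915805-33916054 (−) and NDUFA6 at chr22:42090773-42091022 (−).
NDUFA4L2: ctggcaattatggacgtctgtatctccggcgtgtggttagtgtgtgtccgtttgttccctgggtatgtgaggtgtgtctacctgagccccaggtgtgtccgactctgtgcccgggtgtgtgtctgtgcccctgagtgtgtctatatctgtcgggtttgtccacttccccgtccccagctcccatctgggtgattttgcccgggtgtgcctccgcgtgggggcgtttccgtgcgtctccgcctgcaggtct
ATP5MC1: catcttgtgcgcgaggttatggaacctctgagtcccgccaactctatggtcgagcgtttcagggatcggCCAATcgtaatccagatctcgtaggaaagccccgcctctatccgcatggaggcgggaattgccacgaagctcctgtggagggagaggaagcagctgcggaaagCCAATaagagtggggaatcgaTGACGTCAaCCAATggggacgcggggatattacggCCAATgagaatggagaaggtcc
COX7A2: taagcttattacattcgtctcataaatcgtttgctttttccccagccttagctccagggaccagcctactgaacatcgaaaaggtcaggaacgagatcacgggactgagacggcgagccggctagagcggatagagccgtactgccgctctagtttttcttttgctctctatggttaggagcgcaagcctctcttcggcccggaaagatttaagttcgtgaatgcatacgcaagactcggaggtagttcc
ATP5PO: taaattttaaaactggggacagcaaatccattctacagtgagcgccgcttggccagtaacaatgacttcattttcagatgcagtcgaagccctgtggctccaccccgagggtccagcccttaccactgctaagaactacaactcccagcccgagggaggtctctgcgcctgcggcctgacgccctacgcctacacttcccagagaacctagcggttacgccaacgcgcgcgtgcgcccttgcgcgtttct
NDUFA6: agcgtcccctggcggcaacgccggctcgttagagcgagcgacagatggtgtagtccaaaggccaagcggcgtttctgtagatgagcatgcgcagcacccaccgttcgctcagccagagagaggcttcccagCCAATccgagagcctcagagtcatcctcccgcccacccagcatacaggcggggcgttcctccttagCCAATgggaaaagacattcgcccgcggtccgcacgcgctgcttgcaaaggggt
The ATP5MC1 window holds 1 CRE, 1 base before the third of its 4 CCAAT matches, and is 56% G or C. The NDUFA6 window holds 2 CCAAT matches, and none of the 6 motifs as spelled is in these windows of NDUFA4L2, COX7A2 and ATP5PO. Another form of the HIF core, GCGTG, was not searched for or counted, and its letters do stand in the NDUFA4L2 and ATP5PO windows. Of the 88 nuclear subunits 70 matched the promoter table, 3 by an older symbol, with 84 windows. ETS was in 22.6% of these windows against 8.52% of all 35116, NRF1 in 11.9% against 1.64%, YY1 in 2.38% against 1.36%, CRE in 4.76% against 1.65%, CCAAT in 32.1% against 32.0% and HRE in 19.0% against 18.5%. The NRF1 share depends on the letters chosen. With 1 more C at the end, the form counted first, it was in 3.57% against 1.03%. A match describes letters and is not a bound site.

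In the other named classes with at least 50 cells both shares were lower than in the cardiomyocyte-like cells of the same sample. The 536 cells with PD173074 and 89 without of cluster 9, which carry cardiomyocyte markers and were set aside, were higher instead. There the mitochondrial subunits took 4.85% of UMIs with PD173074 and 4.53% without PD173074, and the nuclear subunits 2.59% and 2.57%. Mitochondrial subunits took 1.89% of UMIs in cartilage-like cells with PD173074, 1.72% without PD173074 and 2.16% in 2D culture, and nuclear subunits 1.76%, 1.59% and 1.83%. In epithelial-like cells the mitochondrial share was 2.65% with PD173074 and 2.59% without, and the nuclear share 1.81% and 1.67%. Fibroblast or stromal-like cells were at 2.02% mitochondrial without PD173074 and 1.91% in 2D culture. MT-ND3 was called higher with PD173074 than without in epithelial-like cells, at 981 CPM with PD173074 and 575 CPM without PD173074, where 0.223% of genes were. ATP5MC1 was called lower in cartilage-like cells without PD173074 than in 2D culture, with a log2 ratio of −0.99, where 0.816% of genes were. MT-ND4 was the other member called in that comparison.

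The endoderm-like cells, a class of 55 cells with PD173074 and 74 without, held the widest mitochondrial difference. Their mitochondrial subunits took 2.37% of UMIs with PD173074 and 0.533% without PD173074. All 13 were called higher with PD173074, where 5.91% of 8459 genes were, with log2 ratios from 1.72 for MT-ND2 to 2.72 for MT-ND3. Of 81 nuclear subunits 6 were called higher, namely ATP5MC1, ATP5MC2, ATP5MC3, COX7C, COX6C and UQCRQ, which is near the 5.91% of all genes. COX4I2 was called lower, at 9.64 CPM with PD173074 and 35.8 CPM without PD173074, where 13.1% of genes were called lower. The median log2 ratio over all genes was −0.53 in this comparison. The calls of nuclear subunits were not repeated without the cells described next.

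Much of that difference lay in a group of cells with hardly any mitochondrial transcripts. Under 0.1% of UMIs were mitochondrial subunit UMIs in 7 of 55 endoderm-like cells with PD173074 and in 50 of 74 without PD173074, which is 67.6% (55.7% to 78.0%). Only 4 of the 74 lay between 0.05% and 0.3%, and 11 had no such UMI in any run. In cardiomyocyte-like cells 29 of 2859 were under 0.1% with PD173074, 16 of 3057 without PD173074 and 5 of 7235 in 2D culture. Without these cells the endoderm-like shares were 2.67% with PD173074 and 1.73% without PD173074, with a log2 ratio of 0.62.

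In the 50 cells without PD173074 nuclear subunits took 1.46% of UMIs, against 1.71% in the other 24 cells, and none of the 81 read was called in either direction, where 2.53% of all genes were called higher and 5.66% lower. Their median depth was 5630 UMIs, against 8091 in the other 24. Genes named here were chosen after their values were seen. HAND1, a transcription factor of heart and extraembryonic tissue, was at 1826 CPM in the 50 cells and 90.4 CPM in the 24, and NUPR1 and ATF5, both genes of the stress response, at 705 and 41.2 CPM and at 520 and 69.3 CPM. The endoderm markers TTR, AFP and SERPINA1 were at 33.5, 247 and 310 CPM in the 50 cells and at 2469, 2649 and 5265 CPM in the 24, so the name endoderm-like describes the 50 poorly. Of the epithelial markers, the keratins KRT19, KRT18 and KRT8 were at 3143, 1351 and 1802 CPM in the 50 cells and 2123, 1012 and 1655 CPM in the 24. EPCAM was at 504 and 520 CPM. VTCN1 was at 191 and 35.2 CPM and GABRP at 119 and 5.09 CPM, from 7.53 and 1.09 UMIs per run in the 24. MALAT1, a nuclear noncoding RNA, was at 30815 and 18129 CPM. The 7 such cells with PD173074 did not show the differences in HAND1, NUPR1, TTR, SERPINA1 and MALAT1. HAND1 and NUPR1 were at 0 UMIs in them, TTR and SERPINA1 at 899 and 5015 CPM and MALAT1 at 11098 CPM. In the other 48 these genes were at 3.23, 3.21, 1345, 1037 and 10019 CPM. ATF5 was at 141 CPM in the 7 and 21.6 CPM in the 48. The part of depth, of the stress genes and of MALAT1 in the low mitochondrial share was not tested.

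The genes that build and serve the chain mostly stayed within 1.5-fold in cardiomyocyte-like cells. Of the listed assembly factors 0 of 39 read were called with PD173074 over without PD173074, 0 of 41 without PD173074 over 2D culture, and 2 of 41 were called lower with PD173074 than in 2D culture. Over all genes 5.61% were called higher and 5.12% lower in the first of these comparisons, 2.29% and 0.724% in the second and 8.57% and 6.86% in the third, so 2 of 41 is near the share of all genes. These were SURF1, a complex IV assembly factor, and HIGD1A, at 53.9 CPM with PD173074 and 114 CPM in 2D culture. The complex I assembly factors NDUFAF1 to NDUFAF8 were not called in any comparison. Among electron and energy carriers, VDAC1, the main channel of the outer membrane, was called lower with PD173074, at 119 CPM against 203 CPM without PD173074. CKMT2, the muscle mitochondrial creatine kinase, was called lower too, at 11.98 CPM with PD173074, 29.3 CPM without PD173074 and 39.7 CPM in 2D culture. Both were among the 4 of 14 carriers called lower with PD173074 than in 2D culture (6.86% of all genes), with CYCS, cytochrome c itself, and the ADP/ATP carrier SLC25A5.

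The genes of mitochondrial transcription and RNA upkeep gave 0 of 17 with PD173074 over without PD173074 and 0 of 18 without PD173074 over 2D culture, and MTERF1 and FASTKD1, 2 of 17, were called lower with PD173074 than in 2D culture, where 6.86% of all genes were. In the first of these comparisons 5.61% of all genes were called higher and 5.12% lower, and in the second 2.29% and 0.724%. TFAM, which packages and transcribes the mitochondrial genome, was at 46.3, 49.2 and 38.2 CPM. None of the 11 or 12 biogenesis regulators read and none of the 17 TCA cycle genes was called in any of the 3 comparisons, against the same shares of all genes, and the coactivator PPARGC1A was at 104 CPM with PD173074, 80.6 CPM without PD173074 and 119 CPM in 2D culture. Of 75 mitochondrial ribosome genes read 1, MRPS6, was called lower with PD173074 than without (5.12% of all genes), at 244 CPM with PD173074 and 446 CPM without PD173074, and 60 of the 75 had a ratio below 1.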

How the data were processed

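Single-cell gene counts of 11 libraries in 3 groups were used. The authors deposited filtered matrices of UMI counts per gene and barcode. Cell Ranger 7.0.0 and the build hg38 are named in the submitters' processing notes, and the labels give 3′ chemistry v2 or v3. No source used here says whether counting used strand. The members, gene lists and comparisons were chosen with earlier results of these data known, and no list is independent support.

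Repeat runs of the same droplets were averaged per barcode. Barcodes in every run were kept when their mean over runs was 1000 UMIs or more, with 500 genes or more and no more than 30% mitochondrial UMIs. That limit cuts the measure itself, and it removed 15 cells with PD173074, 1 without PD173074 and 6 in 2D culture. No doublet caller was run and no cell was removed as a doublet.

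Cells were clustered with scanpy 1.11.5 (2000 variable genes, 30 components, 15 neighbours, leidenalg 0.10.2 at resolution 0.6) without mitochondrial genes, ribosomal protein genes and members. A cluster was cardiomyocyte-like when the 15 markers summed to at least 10000 CPM with at least 3 markers at 50 CPM, a threshold set after the data were seen; other classes needed 3 listed markers in the top 100 genes. Cluster 9 met the cardiomyocyte rule (27460 CPM, 14 markers at 50 CPM) but had none of these markers and MYH11 and SHOX2 among its top 10 genes, and was set aside (536, 89 and 2 cells with PD173074, without PD173074 and in 2D culture).

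CPM, computed here, scale the UMIs of a gene to a total of 1000000. A call needed 20 CPM in the higher sample and a 95% counting interval of the ratio wholly beyond 1.5-fold. UMIs from free RNA were not subtracted. The call rule was tried on simulated counts with counting error only, which cannot show how it fares with differences between cultures. Named members are the 13 mitochondrial genes, every member called, the paralog pairs, complex II, CYC1, up to 4 genes of each of the 7 lists, the 2 most abundant subunits of a complex and markers; genes outside that rule were chosen after their values were seen. Alternatives used edgeR 4.0.16 and DESeq2 1.42.0 scaling factors, other floors, folds, cell filters and clusterings, and each run left out in turn.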

Additional observations from a re-analysis of the deposited data

Results flagged for a closer look

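Run 3 of the cardioids without PD173074 stood apart from the other 4 runs of the same droplets. Its cardiomyocyte-like cells held 4.11% mitochondrial subunit UMIs, against 3.62% to 3.64% in the other runs, and 2.26% nuclear subunit UMIs, against 2.10% in them. The gap to the nearest run was over 0.71 of the whole range in both, the limit for 5 values, which chance passes in about 1 of 20 groups. Of the 100 members read, 61 passed the same limit, all of them in run 3. MT-ND6 was at 75.3 CPM in run 3, against 118 to 122 CPM in the others, and NDUFA4L2 at 110 CPM, against 94.3 to 100.02 CPM. Run 3 was also the shallowest, at 12266166 UMIs against 23074862 to 24495291, and the part of depth in these values was not tested.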

How the results depend on the processing

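No paired analysis was possible because each group is a single sample and no result comes from a test. With the fold line lowered to 5/4, 8 members were higher and 3 lower with PD173074 than without, 35 were lower without PD173074 than in 2D culture, and 25 were lower with PD173074 than in 2D culture. Beyond 2-fold these counts were 0 higher with PD173074 than without, 0 lower without PD173074 than in 2D culture, and 0 higher and 2 lower with PD173074 than in 2D culture. With TMM or DESeq2 scaling 2 members were higher with PD173074 than without, and with a 15% mitochondrial limit or clustering at resolution 1.0 the count was 0. Clustering with the nuclear members gave 0 higher with PD173074 than in 2D culture. With clusters mostly of another group left out, 3 were higher with PD173074 than without and 19 lower without PD173074 than in 2D culture. With shared clusters weighted equally, an alternative chosen after seeing the data like those of the cluster 1 contrast and of the endoderm-like cells, these were 0 and 0, and with PD173074 over 2D culture 0 were higher and 1 lower. With PD173074 over 2D culture the weighting rested on clusters 5 and 12 only, and the complex I and complex III sums then had log2 ratios of 0.01 and 0.01. Over all cells 2 were lower without PD173074 than in 2D culture, and with no cell filter 2 were higher with PD173074 than in 2D culture. Leaving out each run gave 0 to 1 higher with PD173074 than without, and 4 to 7 lower without PD173074 than in 2D culture. The shares over all genes given earlier belong to the main settings. Those under these other settings are not given here, so these counts cannot be read against all genes.

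The mitochondrial share with PD173074, without PD173074 and in 2D culture was 4.16%, 3.70% and 5.15% under the 15% limit, 3.73%, 3.44% and 4.64% with no filter, and 3.59%, 3.41% and 4.52% over all cells. The nuclear share was 2.63% in 2D culture under the 15% limit, 2.06%, 2.04% and 2.45% with no filter, and 2.07%, 2.05% and 2.47% over all cells. Where counts or shares moved without a stated reason, the cause was not tested. Of the values of the main counts and shares under other settings, 118 stayed within the set limits and 40 moved beyond them. Of the further values, for sums and single genes, 411 stayed within them and 278 moved. NDUFA4L2 with PD173074 over without PD173074 kept its sign at log2 ratios from −4.92 to −1.35, the weakest being over all cells. Over 21 settings the log2 ratio of the nuclear sum of these samples was below 0 in 1 and reached 0.15, that of complex V was below 0 in 19, and that of complex II without PD173074 over 2D culture was below 0 in 4.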
